A study of Homo sapiens with 12 samples.

Results

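The 38 genes described here are the autophagy and lysosome genes of a human gastric cancer cell line. They were chosen by symbol: the kinases and lipid enzymes that start an autophagosome, the conjugation machinery, the ATG8 proteins, cargo receptors, the MiT/TFE transcription factors with their regulators, and lysosomal proteins. The deposited table held 38 of 38 among its 17303 genes, and 38 passed the filter on low counts that left 12868 genes for testing. The samples were 12 bulk RNA-seq libraries of SNU638 cells, and every line had been infected with lentivirus and selected with puromycin into a stable line. Lines sh-SKA2-1, sh-SKA2-2 and sh-SKA2-3, here hairpin 1, hairpin 2 and hairpin 3, carried different short hairpin RNAs and are labelled as SKA2 knockdown; the sh-control line, here the control, is labelled as wild type. Each of the 4 lines gave 3 libraries. SKA2 encodes a kinetochore protein, and the series was made to find the genes it regulates in gastric cancer cells. Each hairpin stands for 1 selected line, so a hairpin and its line cannot be told apart. Whether a line's 3 libraries are separate cultures is not stated; the p-values therefore cover the spread among libraries alone, and that spread may be technical.

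Libraries held 14693323 to 16739147 counts on genes. SKA2 itself had 22.3 to 26.0 CPM (counts scaled to library size) in the hairpin 1 libraries, 23.3 to 27.2 CPM in the hairpin 2 libraries and 24.9 to 28.0 CPM in the hairpin 3 libraries, against 117 to 126 CPM in the control libraries. All 9 knockdown libraries were below all 3 control libraries. Of 6 gastric epithelial markers, 5 reached at least 1 CPM in every library. Their summed level was 2190 to 2270 CPM in hairpin 1 cells, 998 to 1030 CPM in hairpin 2 cells and 1990 to 2670 CPM with hairpin 3, against 2540 to 3610 CPM in the control. Endothelial markers summed to at most 0.593 CPM, fibroblast markers to at most 8.86 CPM and leukocyte markers to at most 28.0 CPM, the last mostly CD68, itself a lysosomal membrane protein. The leukocyte sum was 10.8 to 13.4 CPM in the hairpin 2 libraries, below the 20.6 CPM or more of the other libraries. The fibroblast sum was 5.06 to 6.07 CPM in hairpin 1 cells, 7.12 to 8.59 CPM in hairpin 2 cells and 3.51 to 5.69 CPM in hairpin 3 cells, against 7.16 to 8.86 CPM in the control. It was below the control without overlap in hairpin 1 and hairpin 3 cells. The most abundant fibroblast marker was COL1A1, at a mean of 6.34 CPM. Every library came from the SNU638 cell line, so these sums are levels in that line and not counts of other cell types. Bulk libraries do not show whether all cells of a line differed or only some. The first control library and the first hairpin 3 library stood apart from the other libraries of their lines: the slope of log2 expression on each doubling of transcript length was -0.06 in that control library against -0.24 and -0.32 in the other control libraries, and 0.09 in that hairpin 3 library against -0.12 and -0.17 in its line.

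Autophagy delivers cytoplasmic material to the lysosome. A kinase complex around ULK1 starts it, a phosphatidylinositol 3-kinase complex marks the membrane, and a conjugation system attaches ATG8 proteins to the growing autophagosome, where cargo receptors dock. The transcription factors TFEB, TFE3 and MITF bind an E-box with the core CACGTG in the promoters of many of these genes, and nutrient signals at the lysosomal surface control their entry into the nucleus. Tumour cells can use the pathway to recycle nutrients.

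RefSeq promoter windows, 250 bases before to 50 after a transcription start on GRCh38.p14, were found for 34 of the 38 genes, with 44 windows in all. They were searched on both strands for CACGTG, the core bound by MiT/TFE factors, for a longer palindrome, the core with GT before it and AC after it, for GTAAACA, bound by FOXO factors, and for TGATGNAA, the core of the CHOP-ATF4 element. CACGTG was in 6 of 44 member windows (13.6%; ATG14, ATG3, CTSD, FNIP1, LAMP1 and MCOLN1), against 7.26% of 35116 windows in all. The palindrome was in 1 (2.27%; MCOLN1), against 0.353% of all windows. GTAAACA was in 1 (2.27%; CTSL), against 3.42%, and TGATGNAA was in 0 of the 44, against 3.62%. A match describes letters and does not show that a factor binds, and a window without one says only that these letters are not in it. Below are the windows of FNIP1, the member with the greatest rise in the mean of the hairpins, of MCOLN1, which holds the palindrome, of GABARAPL1, which rose most with hairpin 2, and of MAP1LC3B, which fell most. They lie at chr5:131796968-131797267 on the minus strand, chr19:7522374-7522673 on the plus strand, chr12:10212627-10212926 on the plus strand and chr16:87392086-87392385 on the plus strand. Capitals mark the matches, which begin at positions -175 and -94 from the start in FNIP1 and at -41 and -16 in MCOLN1, where the palindrome is the match at -16. GABARAPL1 and MAP1LC3B held none of the 4 motifs.
FNIP1: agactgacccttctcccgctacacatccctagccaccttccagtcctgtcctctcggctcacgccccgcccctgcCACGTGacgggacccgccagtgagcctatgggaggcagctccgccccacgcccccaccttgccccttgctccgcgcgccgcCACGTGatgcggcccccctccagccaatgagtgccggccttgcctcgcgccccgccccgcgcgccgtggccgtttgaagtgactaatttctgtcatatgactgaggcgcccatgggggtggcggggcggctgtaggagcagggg
MCOLN1: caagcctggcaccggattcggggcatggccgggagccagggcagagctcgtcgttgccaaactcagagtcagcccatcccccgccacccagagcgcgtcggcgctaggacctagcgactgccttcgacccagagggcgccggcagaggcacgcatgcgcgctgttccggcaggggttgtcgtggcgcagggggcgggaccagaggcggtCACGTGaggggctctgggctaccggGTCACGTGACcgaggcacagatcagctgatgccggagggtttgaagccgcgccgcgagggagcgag
GABARAPL1: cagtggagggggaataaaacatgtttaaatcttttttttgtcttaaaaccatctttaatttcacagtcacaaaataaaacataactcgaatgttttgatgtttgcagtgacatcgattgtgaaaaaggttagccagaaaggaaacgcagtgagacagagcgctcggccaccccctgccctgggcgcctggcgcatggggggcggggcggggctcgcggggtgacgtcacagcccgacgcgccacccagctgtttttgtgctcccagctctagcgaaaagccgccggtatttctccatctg
MAP1LC3B: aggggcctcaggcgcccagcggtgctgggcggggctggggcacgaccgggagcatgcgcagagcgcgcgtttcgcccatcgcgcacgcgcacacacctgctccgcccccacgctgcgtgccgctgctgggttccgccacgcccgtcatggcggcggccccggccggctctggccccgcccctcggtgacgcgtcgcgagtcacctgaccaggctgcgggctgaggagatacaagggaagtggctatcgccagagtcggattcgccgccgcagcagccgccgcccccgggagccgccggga

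Levels per transcript length spanned a wide range. In control cells the highest mean was that of SQSTM1, the cargo receptor p62, at 469.9 ± 13.5 TPM (SD, n = 3), followed by MAP1LC3B at 276 ± 36 TPM and CTSD, cathepsin D, at 232 ± 15 TPM. The lowest were MITF at 1.92 ± 0.16 TPM and TFEB at 3.05 ± 0.30 TPM. TFE3, of the same factor family, stood at 40.7 ± 5.3 TPM. In counts, the members lay between 29 and 19628 per library.

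The 3 hairpin lines differed on these genes. With hairpin 2 over control, 26 of the 38 members were higher and 7 lower, with a median log2 fold change of 0.42, beside -0.02 for all genes tested. With hairpin 1 over control 8 were higher and 17 lower, with a median of -0.16 beside 0.01, and with hairpin 3 over control 6 were higher and 14 lower, with a median of -0.16 beside 0.01. A gene was called where edgeR's quasi-likelihood test on counts gave a p, adjusted by Benjamini-Hochberg over all genes tested, under 0.05. By that rule 36.6% of all genes were called higher and 37.8% lower with hairpin 2 (74.4% in all), 31.5% higher and 31.5% lower with hairpin 1 (63.1%), and 23.6% higher and 24% lower with hairpin 3 (47.6%). Of the members, 68.4% were higher and 18.4% lower with hairpin 2, 21.1% higher and 44.7% lower with hairpin 1, and 15.8% higher and 36.8% lower with hairpin 3. In the mean of the hairpins 13 members were higher and 10 lower, with a median of 0.06; the background was 33.7% higher and 35.8% lower (69.5% in all), and the members' shares were 34.2% and 26.3%. All these comparisons share the control libraries.

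The difference between lines was tested directly. Hairpin 2 over hairpin 1 gave 34 of 38 members higher and 2 lower (89.5% and 5.26%), with a median of 0.55 beside -0.01 for all genes; the background was 28.2% higher and 29.4% lower (57.6% in all). Hairpin 3 over hairpin 2 gave 2 higher and 31 lower (5.26% and 81.6%), with a median of -0.61 beside 0.02 and a background of 33.4% higher and 31.9% lower (65.3% in all). Both comparisons use the hairpin 2 libraries. Hairpin 3 over hairpin 1 gave 3 higher (7.89%) and 0 lower in edgeR, with a background of 4.75% higher and 4.7% lower (9.45% in all). The median was 0.05 beside -0.01. DESeq2 called 4 higher and 1 lower, beside 8.62% of all genes higher and 7.04% lower (15.7% in all). At an unadjusted p under 0.05 in edgeR, 7 members were higher and 4 lower, and the share of all genes at that threshold was not taken. Each library was also left out in turn. Calls lost in at least 1 of those fits were 2 of 36 for hairpin 2 over hairpin 1 (CTSL and MITF). For hairpin 3 over hairpin 2 they were 3 of 33 (ATG101, ATG7 and MITF). The lower epithelial marker sum of the hairpin 2 line stands beside these results, and its part in them was not tested.

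**Figure D1:**
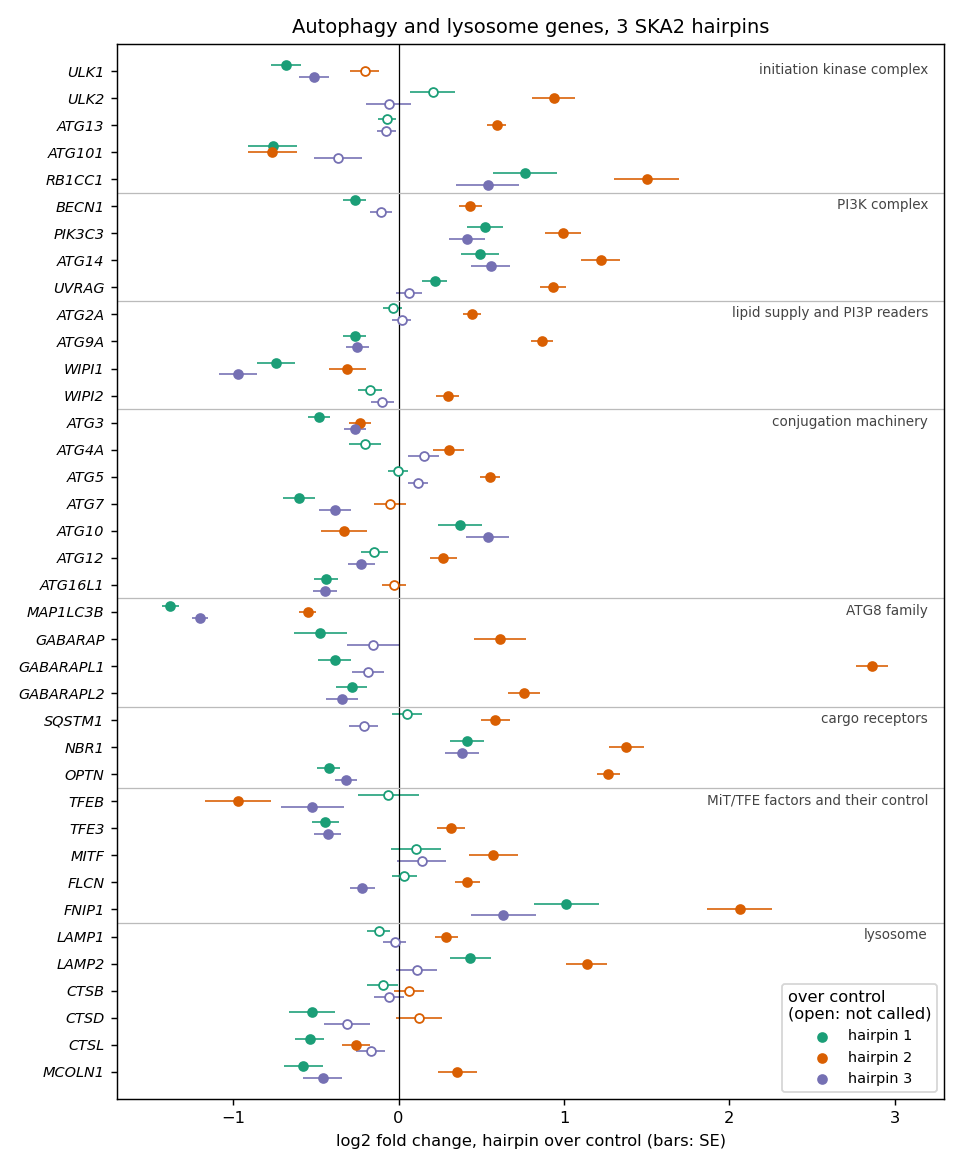
Log2 fold change of each of the 38 members, hairpin over control, on the x axis, with genes grouped by role down the page; points are hairpins 1, 2 and 3, bars are SE, and open points are not called in edgeR. Hairpin 2 points lie right of those of the other hairpins for most members, and the farthest is GABARAPL1 at 2.86.

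Against the control, some calls rested on single libraries or on the scale. With each library left out in turn, some calls were lost in at least 1 of those fits. They were ATG10, GABARAP, GABARAPL2 and UVRAG with hairpin 1, and ATG10, CTSL, MCOLN1 and WIPI1 with hairpin 2. With hairpin 3 they were ATG12, FLCN, FNIP1, GABARAPL2, RB1CC1 and TFEB, and in the mean ATG13, ATG2A, OPTN, TFE3, TFEB and ULK2. On log2(TPM + 1) with limma, the median of all genes moved to 0.29 with hairpin 1, 0.33 with hairpin 2, 0.12 with hairpin 3 and 0.25 in the mean. The split of called members became 17 higher and 4 lower with hairpin 1, 32 and 2 with hairpin 2, 5 and 6 with hairpin 3, and 26 and 3 in the mean. Beside those shifts, the members' medians on that scale were 0.21 with hairpin 1, 0.82 with hairpin 2, -0.01 with hairpin 3 and 0.39 in the mean. Of all genes called there, 78.9% were higher with hairpin 1, 71.7% with hairpin 2, 60.9% with hairpin 3 and 74.3% in the mean. With offsets for transcript length and GC content in the edgeR fit, the split was 9 higher and 16 lower with hairpin 1, 26 and 2 with hairpin 2, 7 and 12 with hairpin 3, and 19 and 7 in the mean. Of all genes in that fit, 32.3% were higher and 28.4% lower with hairpin 1, and 38.8% and 37.4% with hairpin 2. The shares were 28.8% and 27.6% with hairpin 3, and 34.2% and 33.3% in the mean.

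The ATG8 family held the sharpest contrast. These small ubiquitin-like proteins are coupled to lipid on the autophagosome, where they bind cargo receptors and help the membrane close and fuse. GABARAPL1, Entrez 23710, at chr12:10212458-10223130 on the plus strand (GRCh38), had 138, 136 and 138 CPM in the hairpin 2 libraries. It had 14.9, 13.5 and 14.8 CPM in hairpin 1 cells and 13.99, 17.7 and 18.0 CPM with hairpin 3, against 19.8, 17.5 and 19.3 CPM in the control. Every hairpin 2 library was far above every other library, and the hairpin 3 and control libraries overlapped. The log2 fold change was 2.86 ± 0.10 with hairpin 2 over control (SE; edgeR adjusted p = 8.39e-10), a 7.27-fold rise. Over hairpin 1 it reached 3.25 ± 0.10 (edgeR adjusted p = 1.44e-09), and hairpin 3 over hairpin 2 gave -3.05 ± 0.10 (edgeR adjusted p = 2.67e-09). With hairpin 1 over control it was -0.39 ± 0.10 (edgeR adjusted p = 0.00528), a call lost on TPM at -0.01 and with the length and GC offsets at -0.13. The mean of the hairpins was 0.76 ± 0.08 (edgeR adjusted p = 1.07e-05), a value that joins lines that differ, and it was not called when the 9 knockdown libraries were taken as 1 group (1.57, adjusted p = 0.197).

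MAP1LC3B, Entrez 81631, at chr16:87383995-87404779 on the plus strand, encodes LC3B, the ATG8 protein most used to mark autophagosomes. It had 136, 136 and 139 CPM in hairpin 1 cells, 242, 240.4 and 251 CPM in hairpin 2 cells, and 152, 158 and 157 CPM with hairpin 3, against 359, 362 and 352 CPM in the control. The control libraries were above all others, the hairpin 2 libraries lay between, and no hairpin overlapped the control. The log2 fold change was -1.38 ± 0.05 with hairpin 1 (edgeR adjusted p = 6.35e-09), -0.55 ± 0.05 with hairpin 2 (edgeR adjusted p = 2e-06) and -1.20 ± 0.05 with hairpin 3 (edgeR adjusted p = 1.47e-08). In the mean it was -1.04 ± 0.04 (edgeR adjusted p = 1.94e-09), the greatest fall of the 38 members. The hairpin 2 value was not called on log2(TPM + 1), at -0.11. MAP1LC3B and GABARAPL1 have near-identical copies elsewhere in the genome, MAP1LC3B2 and GABARAPL3, among which the authors' expected counts could split reads.

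GABARAP and GABARAPL2, which act later in autophagosome formation than LC3B, moved with hairpin 2 as well. GABARAP had 114, 105 and 114 CPM in hairpin 1 cells, 245, 240.1 and 221 CPM in hairpin 2 cells and 106, 147 and 163 CPM with hairpin 3, against 121, 163 and 178 CPM in the control. Hairpin 2 libraries were above all the rest, and the first hairpin 3 and control libraries were the low ones of their lines. GABARAPL2 had 61.5, 60.2 and 68.0 CPM in hairpin 1 cells, 136, 127 and 128 CPM in hairpin 2 cells and 55.7, 59.9 and 66.7 CPM with hairpin 3, against 66.8, 81.6 and 82.5 CPM in the control. Only the hairpin 2 libraries stood above the control without overlap. With hairpin 2 over control the log2 fold change was 0.61 ± 0.16 for GABARAP (edgeR adjusted p = 0.00388) and 0.76 ± 0.10 for GABARAPL2 (edgeR adjusted p = 2.23e-05). Over hairpin 1 the values were 1.09 ± 0.16 and 1.04 ± 0.10, both called. With hairpin 1 over control GABARAP stood at -0.47 ± 0.16, a call lost without the second or the third control library (-0.43 and -0.35) or the second hairpin 1 library (-0.45), with the value turning to 0.23 with a covariate for the length slope of each library. GABARAPL2 stood at -0.28 ± 0.10 with hairpin 1 and -0.34 ± 0.10 with hairpin 3. The hairpin 1 call was lost without the second (-0.24) or the third (-0.23) control library or the first (-0.26) or second (-0.27) hairpin 1 library, and turned to 0.09 on TPM; that with hairpin 3 was lost without the second (-0.30) or the third (-0.29) control library.

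**Figure D2:**
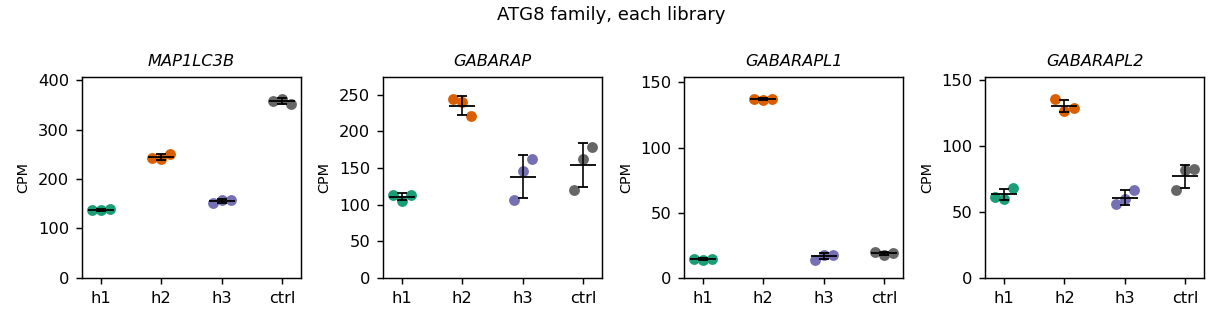
CPM of the 4 ATG8 family members in each library by line, with hairpins left of the control; bars are the mean and SD of 3 libraries. GABARAPL1 lies near 137 CPM in the hairpin 2 libraries and under 20 CPM in all others, and MAP1LC3B is highest in the control.

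Per transcript length, the 4 ATG8 family members described here were summed, without other family genes such as MAP1LC3A and MAP1LC3C. The sum was 520.2 ± 15.4 TPM with hairpin 1, 1222 ± 10 TPM with hairpin 2 and 498 ± 12 TPM with hairpin 3, against 659.8 ± 25.7 TPM in the control (SD, n = 3 each). The 3 hairpin 2 libraries were above all others, and those of hairpins 1 and 3 were below the control without overlap. The makeup differed as well. MAP1LC3B was 26.3 ± 0.8% of that sum with hairpin 1, 20.8 ± 0.9% with hairpin 2 and 26.8 ± 2.8% with hairpin 3, against 41.7 ± 4.0% in the control. GABARAPL1 was 3.24 ± 0.10%, 13.6 ± 0.3% and 3.35 ± 0.09% with hairpins 1, 2 and 3, against 2.59 ± 0.39% in the control. GABARAP was the commonest of the 4 with each hairpin, at 38.1 ± 0.9%, 35.9 ± 1.3% and 42.0 ± 4.0% with hairpins 1, 2 and 3, against 31.8 ± 3.6% in the control. GABARAPL2 was 32.4 ± 1.1%, 29.7 ± 0.5% and 27.8 ± 1.5%, against 23.9 ± 0.7% in the control. These shares were not tested.

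**Figure D3:**
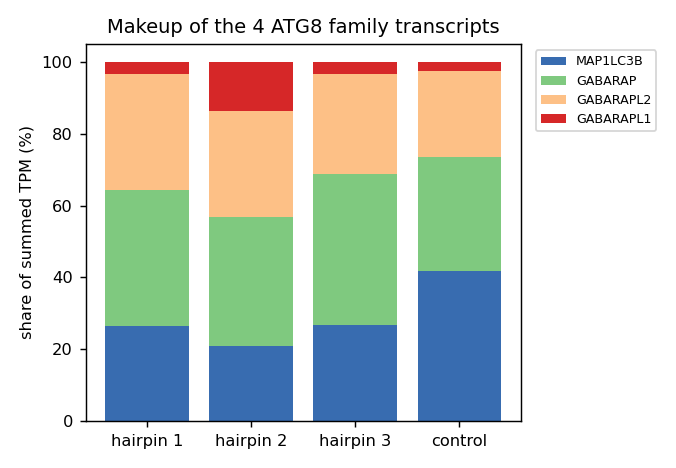
Mean share of each of the 4 ATG8 family transcripts in their summed TPM, in percent, for hairpins 1, 2 and 3 and the control. The MAP1LC3B share is 41.7% in the control and 20.8% with hairpin 2, and the GABARAPL1 share is 13.6% with hairpin 2 and under 4% elsewhere.

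In the initiation complex, RB1CC1 and ULK1 moved in opposite directions. RB1CC1, also FIP200, the scaffold of the complex, had 108, 109 and 108 CPM in hairpin 1 cells, 171, 179 and 190.5 CPM in hairpin 2 cells and 124, 80.4 and 73.0 CPM with hairpin 3, against 81.6, 57.8 and 51.8 CPM in the control. Hairpins 1 and 2 were above the control, whereas the hairpin 3 and control libraries overlapped. The log2 fold change was 0.76 ± 0.19 with hairpin 1, 1.499 ± 0.20 with hairpin 2 and 0.54 ± 0.19 with hairpin 3, and 0.93 ± 0.17 in the mean (edgeR adjusted p = 0.000441). The hairpin 3 call was lost without its first library (0.27), without the second (0.47) or the third (0.41) control library, and without the first or the third hairpin 1 library (both 0.54). By library number, the hairpin 3 level of RB1CC1 was 1.52, 1.39 and 1.41 times that in the control. With length and GC offsets the values were 0.15, 0.75 and 0.15 with hairpins 1, 2 and 3, and 0.35 in the mean, each still called; with the length slope as a covariate that of hairpin 1 turned to -0.03. ULK1, the kinase that phosphorylates the rest of the machinery, had 41.2, 42.3 and 38.8 CPM in hairpin 1 cells, 56.1, 59.1 and 55.0 CPM in hairpin 2 cells and 38.9, 48.8 and 50.01 CPM with hairpin 3, against 64.4, 65.1 and 66.7 CPM in the control. Every control library was above every knockdown library. The log2 fold change was -0.68 ± 0.09 with hairpin 1 and -0.51 ± 0.09 with hairpin 3, both called, and -0.21 ± 0.09 with hairpin 2, not called (edgeR adjusted p = 0.0547). In the mean it was -0.47 ± 0.07 (edgeR adjusted p = 0.000157), not called on TPM at -0.14.

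ATG101, which stabilises ATG13 in the complex, had 43.5, 44.1 and 46.0 CPM in hairpin 1 cells, 47.4, 43.5 and 42.5 CPM in hairpin 2 cells and 48.3, 58.1 and 69.1 CPM with hairpin 3, against 58.6, 79.7 and 88.0 CPM in the control. Hairpins 1 and 2 were below the control, and hairpin 3 overlapped it. In the mean the log2 fold change was -0.63 ± 0.12 (edgeR adjusted p = 0.000587). It is a short transcript of about 1128 bases, and with length and GC offsets the mean was -0.03 and not called, and so it was with the slope covariate, at -0.06. Hairpin 3 over hairpin 2 gave 0.40 ± 0.15 (edgeR adjusted p = 0.0347). That call was lost without the second hairpin 1 library (0.39), any single hairpin 2 library (0.44, 0.38 and 0.36) or the second (0.40) or the third (0.26) hairpin 3 library, and the value turned to -0.11 with the slope covariate and -0.01 with the offsets. ULK2, the close relative of ULK1, stood at 0.94 ± 0.13 with hairpin 2 over control, not called with the slope covariate at 0.31, and at 0.21 and -0.06 with hairpins 1 and 3, which were not called. ATG13, the regulatory subunit, stood at 0.59 ± 0.06 with hairpin 2, called, and at -0.07 with both other hairpins, not called.

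In the lipid kinase complex, 4 of 4 subunits were called higher with hairpin 2 over control, beside 36.6% of all genes, and 4 of 4 over hairpin 1, beside 28.2%. ATG14, which directs the complex to autophagosome formation, had 48.9, 51.8 and 54.5 CPM in hairpin 1 cells, 79.9, 89.3 and 88.3 CPM in hairpin 2 cells and 61.5, 53.2 and 47.5 CPM with hairpin 3, against 42.9, 35.3 and 32.2 CPM in the control. All knockdown libraries were above all control libraries. ATG14 stood at 0.49 ± 0.12, 1.22 ± 0.12 and 0.56 ± 0.12 with hairpins 1, 2 and 3, and 0.76 ± 0.10 in the mean (edgeR adjusted p = 5.46e-05); with length and GC offsets the values were 0.14, 0.77, 0.34 and 0.42, all called, while the slope covariate left 0.07 with hairpin 1, not called. PIK3C3, the catalytic subunit VPS34, had 55.3, 50.2 and 52.6 CPM in hairpin 1 cells, 73.2, 69.9 and 76.4 CPM in hairpin 2 cells and 57.8, 43.0 and 45.7 CPM with hairpin 3, against 38.9, 38.1 and 33.1 CPM in the control. The knockdown libraries did not overlap the control. Its mean was 0.64 ± 0.09 (edgeR adjusted p = 9.13e-05), but 0.06 and not called with length and GC offsets (adjusted p = 0.498); its transcript is about 6190 bases long. BECN1, the scaffold Beclin 1, stood at -0.26 ± 0.07 with hairpin 1 and 0.43 ± 0.07 with hairpin 2, both called, and at -0.11 with hairpin 3, not called; the hairpin 1 value turned to 0.12 on TPM and was not called. UVRAG, the subunit of the complex that acts on endosomes, stood at 0.93 ± 0.08 with hairpin 2.

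ATG9A, the transmembrane lipid scramblase whose vesicles seed the autophagosome, had 76.6, 71.6 and 69.0 CPM in hairpin 1 cells, 160.2, 157 and 159 CPM in hairpin 2 cells and 67.1, 75.1 and 77.6 CPM with hairpin 3, against 86.1, 88.2 and 86.9 CPM in the control. The hairpin 2 libraries were above the control, and those of the other hairpins below it, without overlap. Over hairpin 1, hairpin 2 gave 1.13 ± 0.07 (edgeR adjusted p = 1.12e-07), a 2.19-fold difference, and hairpin 3 over hairpin 2 gave -1.11 ± 0.07 (edgeR adjusted p = 1.16e-07). WIPI1, a reader of phosphatidylinositol 3-phosphate, had 7.58, 7.53 and 7.86 CPM in hairpin 1 cells, 11.6, 9.90 and 9.56 CPM in hairpin 2 cells and 5.92, 7.09 and 6.58 CPM with hairpin 3, against 14.4, 12.1 and 11.9 CPM in the control. All knockdown libraries were below all control libraries. WIPI1 stood at -0.74 ± 0.11 with hairpin 1, -0.31 ± 0.11 with hairpin 2 and -0.97 ± 0.12 with hairpin 3, and -0.67 ± 0.09 in the mean (edgeR adjusted p = 5.86e-05). The hairpin 2 call was lost without the first control library (-0.21) or the second (-0.28) or the third (-0.26) hairpin 2 library, and turned to 0.11 on TPM. WIPI2, the reader that recruits ATG16L1, and ATG2A, which carries lipid to the growing membrane, were called with hairpin 2, at 0.30 ± 0.07 and 0.44 ± 0.06, and not with hairpins 1 and 3 over 12 libraries; hairpin 2 over hairpin 1 was called for both, at 0.47 and 0.48.

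Of the 7 conjugation genes, 6 were higher and 1 lower with hairpin 2 over hairpin 1, beside 28.2% and 29.4% of all genes. Over control, 3 were higher and 2 lower with hairpin 2 (median -0.03), beside 36.6% and 37.8%. The exception was ATG10, the E2-like enzyme that couples ATG12 to ATG5. It had 7.97, 7.14 and 7.36 CPM in hairpin 1 cells, 4.77, 4.37 and 4.68 CPM in hairpin 2 cells and 9.63, 7.21 and 8.41 CPM with hairpin 3, against 6.59, 5.75 and 5.04 CPM in the control. The hairpin 2 libraries were below all others. Hairpin 2 over hairpin 1 gave -0.70 ± 0.14 (edgeR adjusted p = 0.000976), and hairpin 3 over hairpin 2 gave 0.87 ± 0.14 (edgeR adjusted p = 0.000171). ATG7, the E1-like enzyme that activates both ATG12 and the ATG8 proteins, had 23.1, 26.0 and 23.7 CPM in hairpin 1 cells, 38.6, 35.3 and 32.4 CPM in hairpin 2 cells and 25.8, 27.8 and 31.0 CPM with hairpin 3, against 33.5, 37.7 and 39.0 CPM in the control. Hairpins 1 and 3 were below the control, and hairpin 2 overlapped it. In the mean it was -0.34 ± 0.08 (edgeR adjusted p = 0.00208); it was not called with the slope covariate at -0.10 or with the knockdown libraries as 1 group at -0.33, and turned to 0.13 on TPM. ATG4A, a protease that trims ATG8 proteins, had 10.8, 11.6 and 11.6 CPM in hairpin 1 cells, 16.9, 14.3 and 17.0 CPM in hairpin 2 cells and 13.5, 14.99 and 14.98 CPM with hairpin 3, against 13.9, 12.8 and 12.4 CPM in the control. Its hairpin 1 libraries were the lowest. ATG5, the partner of ATG12, stood at 0.55 ± 0.06 with hairpin 2 over control, and ATG3, the E2-like enzyme for ATG8 proteins, at -0.48 ± 0.07, -0.23 ± 0.07 and -0.26 ± 0.07 with hairpins 1, 2 and 3. The hairpin 2 value of ATG3 turned to 0.24 on TPM, and that of hairpin 3 was not called there at -0.12. ATG16L1, which sets where conjugation takes place, stood at -0.44 ± 0.07 and -0.45 ± 0.07 with hairpins 1 and 3, neither called on TPM at -0.08 and -0.28, and at -0.03 with hairpin 2, not called. ATG12 stood at 0.27 ± 0.08 with hairpin 2, which turned to -0.20 with length and GC offsets.

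Cargo receptors bridge ubiquitinated cargo and ATG8 proteins, and 3 of 3 were called higher with hairpin 2 over control, beside 36.6% of all genes. OPTN, optineurin, Entrez 10133, at chr10:13099449-13138308 on the plus strand, had 61.8, 57.0 and 58.8 CPM in hairpin 1 cells, 199, 184 and 190.3 CPM in hairpin 2 cells and 60.1, 62.9 and 67.7 CPM with hairpin 3, against 75.9, 78.7 and 83.1 CPM in the control. The hairpin 2 libraries were above the control and those of the other hairpins below it. Hairpin 2 over hairpin 1 gave 1.69 ± 0.07 (edgeR adjusted p = 9.94e-09), a 3.23-fold difference, and hairpin 3 over hairpin 2 gave -1.59 ± 0.07 (edgeR adjusted p = 1.13e-08). NBR1, a receptor for protein aggregates and peroxisomes, had 246, 244 and 249.5 CPM in hairpin 1 cells, 475, 474 and 494 CPM in hairpin 2 cells and 276, 226 and 223 CPM with hairpin 3, against 214, 178 and 163 CPM in the control. All knockdown libraries were above all control libraries. Its log2 fold change was 0.41 ± 0.10, 1.38 ± 0.10 and 0.38 ± 0.10 with hairpins 1, 2 and 3, and 0.72 ± 0.09 in the mean (edgeR adjusted p = 2.8e-05); with length and GC offsets the values were 0.14, 0.99, 0.22 and 0.45, all called, and the slope covariate left 0.03 with hairpin 1, not called. SQSTM1, p62, had 898, 852 and 870 CPM in hairpin 1 cells, 1286, 1262 and 1249 CPM in hairpin 2 cells and 634, 775 and 777 CPM with hairpin 3, against 759, 855 and 915 CPM in the control. Hairpin 2 libraries were above the control without overlap, at 0.59 ± 0.09 (edgeR adjusted p = 9.2e-05).

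The transcription factors themselves were of unequal level and direction. TFEB had 3.72, 3.70 and 4.95 CPM in hairpin 1 cells, 1.95, 2.38 and 2.24 CPM in hairpin 2 cells and 2.47, 2.97 and 3.54 CPM with hairpin 3, against 3.42, 4.78 and 4.72 CPM in the control. The hairpin 2 libraries were the lowest, and hairpins 1 and 3 overlapped the control. Hairpin 2 over hairpin 1 gave -0.91 ± 0.20 (edgeR adjusted p = 0.00214), and hairpin 2 over control -0.97 ± 0.20 (edgeR adjusted p = 0.000868), the second not called with the slope covariate at -0.28 or the offsets at -0.33. The mean was -0.52 ± 0.15 (edgeR adjusted p = 0.00958), a call lost without the second (-0.44) or the third (-0.45) control library, with the offsets or the covariate (both -0.03), on TPM (-0.14) and with the knockdown libraries as 1 group (-0.47). TFE3 stood at -0.44 ± 0.08 and -0.43 ± 0.08 with hairpins 1 and 3 and at 0.32 ± 0.08 with hairpin 2, all called; the hairpin 1 value was not called on TPM at -0.06. MITF, their relative, stood at 0.57 ± 0.15 with hairpin 2, a call lost with the offsets at 0.14, and at 0.10 and 0.14 with hairpins 1 and 3, not called.

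FNIP1, which with folliculin controls the GTPases that recruit TFEB and TFE3 to the lysosome, had the greatest rise of the members in the mean. The gene, Entrez 96459, lies at chr5:131641714-131797063 on the minus strand. It had 75.3, 80.0 and 76.6 CPM in hairpin 1 cells, 145, 165 and 169.8 CPM in hairpin 2 cells and 78.0, 52.3 and 47.9 CPM with hairpin 3, against 49.9, 33.9 and 30.9 CPM in the control. Hairpins 1 and 2 were above the control; hairpin 3 overlapped it, its first library lying with hairpin 1. The log2 fold change was 1.01 ± 0.19 with hairpin 1, 2.06 ± 0.20 with hairpin 2 (edgeR adjusted p = 2.57e-06) and 0.63 ± 0.19 with hairpin 3, and 1.24 ± 0.17 in the mean (edgeR adjusted p = 7.12e-05). The hairpin 3 call was lost without its first library (0.39) or the second (0.55) or the third (0.50) control library. By library number, the hairpin 3 level of FNIP1 was 1.56, 1.54 and 1.55 times that in the control. Hairpin 3 over hairpin 2 gave -1.43 ± 0.19 (edgeR adjusted p = 5.47e-05). The transcript is long, about 6249 bases, and with length and GC offsets the values were 0.40, 1.31 and 0.24 with hairpins 1, 2 and 3 and 0.65 in the mean, all called. FLCN, folliculin itself, stood at 0.41 ± 0.08 with hairpin 2, not called with the slope covariate at 0.12, at 0.04 with hairpin 1, not called, and at -0.22 ± 0.08 with hairpin 3, a call lost without the first (-0.14) or second (-0.23) control library or the second (-0.20) or the third (-0.19) hairpin 3 library and turned to 0.04 with the offsets.

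**Figure D4:**
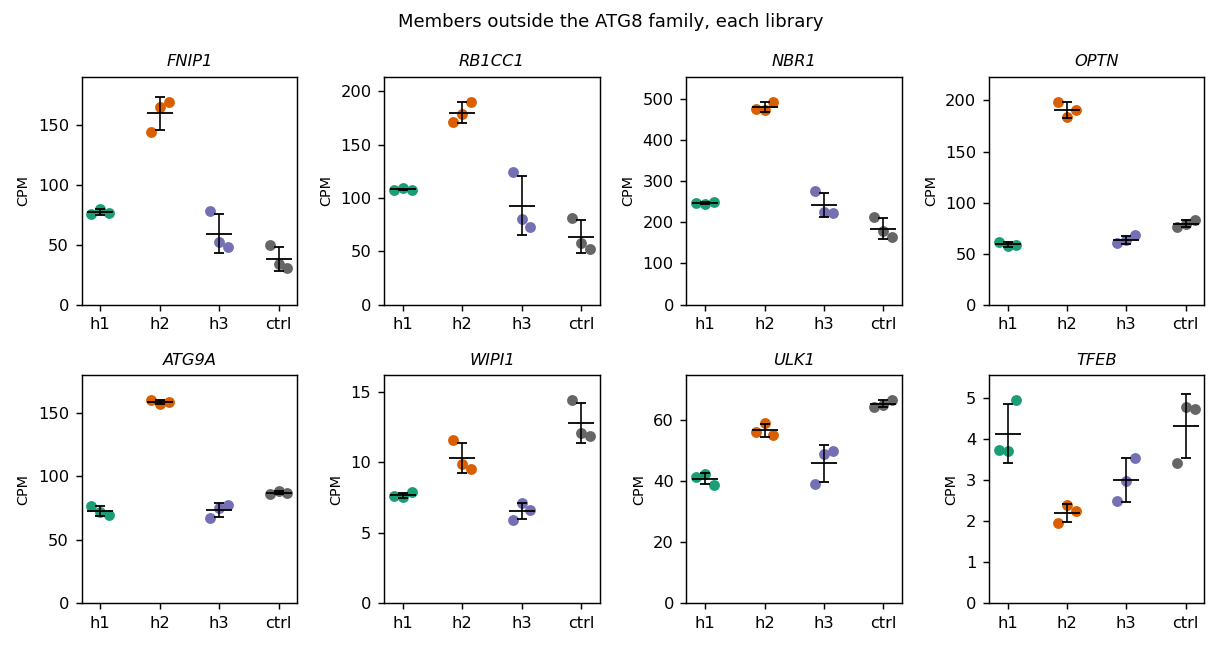
CPM of 8 members outside the ATG8 family in each library; h1, h2 and h3 are hairpins 1, 2 and 3, ctrl is the control, and bars are the mean and SD of 3 libraries. FNIP1, RB1CC1, NBR1, OPTN and ATG9A are highest with hairpin 2, and the first hairpin 3 and control libraries lie above the rest of their lines for FNIP1, RB1CC1 and NBR1.

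Lysosomal members differed among themselves. LAMP2, a membrane glycoprotein that also serves chaperone-mediated autophagy, stood at 1.14 ± 0.12 with hairpin 2 and 0.43 ± 0.12 with hairpin 1, both called, the second not called with length and GC offsets at 0.01, and at 0.11 with hairpin 3, not called. LAMP1, its abundant relative, stood at 0.29 ± 0.07 with hairpin 2, called, and at -0.12 and -0.02 with hairpins 1 and 3, not called. MCOLN1, the lysosomal calcium channel, stood at -0.57 ± 0.12 with hairpin 1, 0.35 ± 0.12 with hairpin 2 and -0.46 ± 0.12 with hairpin 3, all called. Its hairpin 2 call was lost without the first control library (0.27) or the second hairpin 2 library (0.29), and those of hairpins 1 and 3 with the length and GC offsets (-0.06 and -0.10). Among the proteases, CTSB, cathepsin B, stood at -0.10, 0.06 and -0.06 with hairpins 1, 2 and 3, not called in any. CTSD stood at -0.52 ± 0.14 with hairpin 1, called, which turned to 0.03 with the offsets. With hairpin 3 it was -0.31 and not called over 12 libraries (edgeR adjusted p = 0.0828), but the hairpin 3 level was 0.806, 0.818 and 0.795 of that in the control library of the same number. CTSL, cathepsin L, had 29.7, 33.2 and 35.8 CPM in hairpin 1 cells, 42.4, 38.5 and 39.2 CPM in hairpin 2 cells and 39.8, 41.8 and 46.1 CPM with hairpin 3, against 45.3, 49.1 and 49.0 CPM in the control. Its hairpin 1 libraries were the lowest, and the control overlapped hairpin 3.

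Between hairpin 3 and hairpin 1 the 3 members called were CTSL at 0.37 ± 0.09 (edgeR adjusted p = 0.0276), ATG4A at 0.35 ± 0.10 (edgeR adjusted p = 0.0413) and MAP1LC3B at 0.18 ± 0.05 (edgeR adjusted p = 0.0478). The hairpin 3 libraries were above those of hairpin 1 for each, without overlap. With either of the first 2 hairpin 1 libraries left out, or either of the last 2 of hairpin 3, the edgeR count was 0. The share of all genes called in those fits was 1.84% to 2.12%. At an unadjusted p under 0.05 those fits gave 8, 9, 7 and 7 members, and the share of all genes at that threshold was not taken. With the first hairpin 3 library left out the edgeR count was 16, beside 40.5% of all genes. With the first hairpin 3 and first control libraries both left out it was 24, 16 higher and 8 lower, beside 57.1% of all genes. It was 9 without the first control library (20.2% of all genes) and 5 without the third (12.3%). It was 1 without the second control library (5.31%), the third hairpin 1 library (2.29%) or the first (5.86%) or the third (5.52%) hairpin 2 library, and 2 without the second of hairpin 2 (5.13%). On TPM the split was 0 higher and 4 lower, beside 1.88% and 10.4% of all genes, with a median of all genes of -0.19.

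Hairpin 3 over control also depended on how its libraries were paired. Same-numbered libraries of these lines deviated together from their line means, most clearly library 1 (r = 0.73). Control library 2 correlated at 0.17 with hairpin 3 library 2 and at 0.23 with hairpin 3 library 3. Pairing of libraries 2 and 3 by number is therefore an assumption, on which the blocked fits rest. With the hairpin 3 and control libraries alone in the fit, 9 members were called, 2 higher and 7 lower; with the replicate number as a block in that fit, 28 were, 6 higher and 22 lower. Of all genes, 27.7% were called without that block and 71.4% with it. Beside the 20 members called over 12 libraries, the blocked fit called 8 more, all lower. They were CTSD at -0.31 (edgeR adjusted p = 3.08e-10), SQSTM1 at -0.21 (4.19e-07), ATG101 at -0.36 (2.68e-08), GABARAP at -0.15 (0.00109), CTSL at -0.17 (0.0111), BECN1 at -0.10 (0.0323), WIPI2 at -0.10 (0.0415) and GABARAPL1 at -0.19 (0.0482). For CTSD, SQSTM1, ATG101, GABARAP, CTSL and WIPI2 the hairpin 3 library was below the control library in 3 of 3 same-numbered pairs, and for BECN1 and GABARAPL1 in 2 of 3. The blocked fit used these same pairs, so the pair counts describe its calls and are no separate support. CTSB was also below in 3 of 3 pairs, but was not called with the block (edgeR adjusted p = 0.213). The share of all genes below in 3 of 3 pairs was not taken. With the block over 12 libraries, ATG101 was called (edgeR adjusted p = 0.0387) and ATG12 was not (adjusted p = 0.0603).

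Fold changes against the control varied with transcript length. Across the 38 members, Pearson's r of the log2 fold change with log2 length was 0.60 with hairpin 1 (Spearman's rho 0.65), 0.38 with hairpin 2 (rho 0.50) and 0.45 with hairpin 3 (rho 0.49). Between hairpin 2 and hairpin 1 it was 0.02 (rho 0.14), between hairpin 3 and hairpin 2 it was -0.18 (rho -0.27), and between hairpin 3 and hairpin 1 it was -0.49 (rho -0.56). Genes are not replicates, each value shares the same libraries, and these are descriptions without a test. Hairpin 1 libraries had slopes of expression on length of 0.08 to 0.11, hairpin 2 libraries 0.15 to 0.20 and hairpin 3 libraries -0.17 to 0.09, against -0.32 to -0.06 in the control. Of the 36 members called for hairpin 2 over hairpin 1, 36 stayed called with the offsets, with the slope covariate and on TPM. Against the control, the offsets ended 9 of 25 calls with hairpin 1, 8 of 33 with hairpin 2 and 5 of 20 with hairpin 3, the slope covariate ended 15, 10 and 1, and the TPM scale ended 13, 5 and 10. Calls were also gained, in the same order 9, 2 and 4 with the offsets, 5, 3 and 5 with the covariate, and 9, 5 and 1 on TPM. With hairpin 1, FLCN, LAMP1 and SQSTM1 were gained under each. The part of length or GC content in the remaining differences was not tested.

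**Figure D5:**
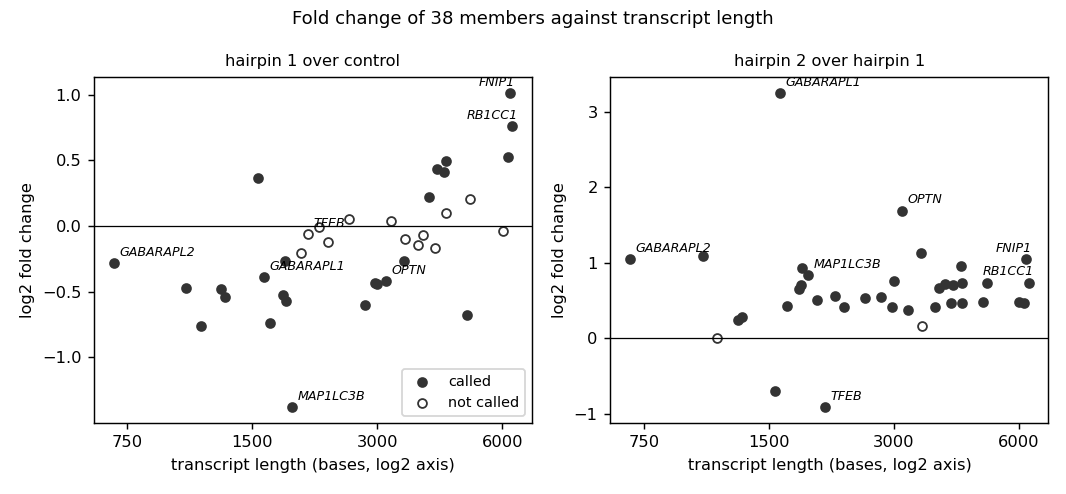
Log2 fold change of the 38 members (y axis) against transcript length in bases (x axis, log2 scale), for hairpin 1 over control on the left and hairpin 2 over hairpin 1 on the right; filled points are called in edgeR. Long transcripts such as FNIP1 and RB1CC1 are at the top on the left (r = 0.60), and no such trend is seen on the right (r = 0.02).

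Other genes of the pathway were counted in 7 further lists, beside the same background of 28.2% higher and 29.4% lower for hairpin 2 over hairpin 1. Genes named from each list were picked for a small adjusted p in the mean of the hairpins, so that p is no independent support. Of 13 tested genes for fusion of autophagosome and lysosome, 8 were higher and 5 not called in that pair (median 0.55). STX17, the autophagosomal SNARE, averaged 41.3, 42.0 and 37.97 CPM with hairpins 1, 2 and 3, against 20.5 CPM in the control, with a mean log2 fold change of 0.98 ± 0.14 (edgeR adjusted p = 8.7e-05). Among 17 tested subunits of the V-ATPase, the lysosomal proton pump, 11 were higher and 2 lower with hairpin 2 over hairpin 1 (median 0.41). ATP6V1A, its catalytic subunit, averaged 130.4, 127 and 121 CPM with hairpins 1, 2 and 3, against 71.9 CPM in the control, a mean log2 fold change of 0.81 ± 0.11 (edgeR adjusted p = 6.5e-05). Of 26 lysosomal membrane and sorting genes 16 were higher and 3 lower in that pair (median 0.53). LAMP3 averaged 11.9, 6.84 and 11.1 CPM with hairpins 1, 2 and 3, against 26.3 CPM in the control (-1.44 ± 0.08 in the mean, edgeR adjusted p = 7.59e-08). SLC17A5, the sialic acid exporter, averaged 31.2, 84.9 and 20.4 CPM, against 20.4 CPM in the control.

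Of 18 tested further core autophagy genes 11 were higher and 3 lower with hairpin 2 over hairpin 1 (median 0.28). ATG4D, a protease of the ATG4 family, averaged 11.4, 18.0 and 11.9 CPM with hairpins 1, 2 and 3, against 27.4 CPM in the control (-1.03 ± 0.09 in the mean, edgeR adjusted p = 2.65e-06). Of 13 further receptors 6 were higher and 3 lower in that pair (median 0.28). CALCOCO1, a receptor for the endoplasmic reticulum, averaged 62.0, 167 and 54.5 CPM with hairpins 1, 2 and 3, against 45.2 CPM in the control, whereas its relative CALCOCO2, also NDP52, averaged 67.2, 94.1 and 71.0 CPM, against 118 CPM in the control (-0.62 ± 0.04 in the mean, edgeR adjusted p = 2.91e-07). Lysosomal hydrolases were mixed: of 42 tested, 20 were higher and 10 lower for hairpin 2 over hairpin 1 (median 0.23). DNASE2, the lysosomal nuclease, averaged 29.2, 48.4 and 34.0 CPM with hairpins 1, 2 and 3, against 79.0 CPM in the control (-1.12 ± 0.10 in the mean, edgeR adjusted p = 2.23e-06). Genes of nutrient sensing at the lysosome gave 10 higher and 3 lower of 23 in the pair (median 0.24).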

How the data were processed

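RNA-seq was measured in 12 libraries, 3 for each of 4 lines of SNU638, with groups and replicate numbers taken from the sample titles. Per the labels' protocols, polyadenylated RNA was fragmented and primed at random; no strand-marking step is named, and where genes overlap in antisense their reads cannot be told apart. Per the submitters' processing notes, the tools were RSEM, DESeq2, HISAT and Bowtie2 and the build GRCh38.p13. What each did, with which version or filter, is not given in the sources used here. Per the file headers, the authors gave each gene in each library a TPM, an FPKM and an expected count. A further 15 columns of the authors' averages were not used. Ambiguous reads are divided among genes in such deposited expected counts, which were rounded to whole numbers, and 84.0% to 86.0% of them per library were whole as given. The deposited FPKM served only to derive each gene's transcript length, and the deposited TPM, scaled by the authors to a fixed total, for levels between genes.

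Counts were tested with edgeR 4.0.16 in R 4.3.3: expression filter on the 4 groups, TMM scaling, one quasi-likelihood fit for 12 libraries (residual df 8), two-sided tests, Benjamini-Hochberg adjustment over 12868 genes and a threshold of 0.05. SE is the absolute log2 fold change divided by the square root of the F statistic. The SE and p of the mean of the hairpins leave out the spread between hairpins. CPM are counts scaled to library size after TMM. Depth was 14693323 to 16739147 counts, and member counts of 29 to 19628 set the precision. The 7 comparisons, and the alternatives described after the results, used limma 3.58.1 (pseudocount 1 on TPM), DESeq2 1.42.0 and mgcv 1.9.3 for smooth offsets. The code was tested on simulated data.

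The members, roles, lists and comparisons were chosen with earlier results of these data known. Full statistics were given for the 6 greatest rises and the 6 greatest falls among members called in the mean of the hairpins and, for each pair of hairpins, the 3 greatest called differences each way; other members were given in shorter form, and of each list up to 3 genes with the smallest adjusted p in the mean. Of the marker lists, LUM and MS4A1 were not used here. Deviations from line means of same-numbered libraries correlated at 0.17 to 0.73 in all 3 pairs of hairpin 3 and control libraries. The numbers were used to pair these lines only in the ratios by library number and in the fits with a replicate block. The main fit has no pairing. Libraries of different number correlated too. Control library 2 gave 0.23 with hairpin 3 library 3, above its 0.17 with hairpin 3 library 2. Control library 3 gave 0.39 with hairpin 3 library 2, against 0.60 with hairpin 3 library 3. Library 1 of either line gave -0.67 to -0.27 with libraries 2 and 3 of the other. Deviations from a line's mean cancel out over its libraries. Negative values there follow in part from the 0.73 between the first libraries and are no separate support. The correlations do not settle how libraries 2 and 3 pair. In every other pair of lines at least 1 same-numbered pair was under 0.1, the lowest at -0.25.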

Additional observations from a re-analysis of the deposited data

Results flagged for a closer look

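Some members were called in opposite directions against the control with 2 of the hairpins, and the difference between those hairpins was itself called in edgeR's quasi-likelihood test. For hairpin 2 over hairpin 1 there were 9 such members (23.7%), beside 5.70% of all genes tested. Their log2 differences were 1.13 for ATG9A, 0.70 for BECN1, 1.09 for GABARAP, 3.25 for GABARAPL1, 1.04 for GABARAPL2, 1.69 for OPTN, 0.76 for TFE3, 0.93 for MCOLN1 and -0.70 for ATG10, where ATG10 alone was lower with hairpin 2. For hairpin 3 over hairpin 2 there were 8 (21.1%), beside 5.96% of all genes. Their log2 differences were -1.11 for ATG9A, -0.49 for ATG12, -1.10 for GABARAPL2, -1.59 for OPTN, -0.74 for TFE3, -0.81 for MCOLN1, -0.63 for FLCN and 0.87 for ATG10. Both sets rest on the same hairpin 2 and control libraries. Scale and length changed these sets. On log2(TPM + 1) with limma, 0 of the 9 and 3 of the 8 (GABARAPL2, MCOLN1 and TFE3) still met the rule. With the length slope as a covariate 2 of the 9 (OPTN and TFE3) and 6 of the 8 did. With length and GC offsets 4 of the 9 and 3 of the 8 did. Other members entered the sets. Counted anew over all 38 members, 2 (5.26%) and 4 (10.5%) met the rule on TPM, beside 5.0% and 5.05% of all genes. With the covariate 3 (7.89%) and 8 (21.1%) did, beside 6.47% and 11.4%. With the offsets 8 (21.1%) and 5 (13.2%) did, beside 11.7% in both pairs. With hairpin 1, the calls against the control of ATG10, GABARAP and GABARAPL2 were lost when single libraries were left out. That also ended the calls of ATG10 and MCOLN1 with hairpin 2 and of ATG12, FLCN and GABARAPL2 with hairpin 3.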

How the results depend on the processing

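The counts of members called for hairpin 2 over hairpin 1 and for hairpin 3 over hairpin 2 stayed within 1.5 times of 36 and 33 under every alternative run. Others moved, and so did the share of all genes called under the same setting, given in brackets. A covariate for the length slope of each library gave 16 for hairpin 1 over control (40.7%) and 11 for hairpin 3 over hairpin 1 (27.4%). For hairpin 3 over control, limma on log2(TPM + 1) gave 11 (41.1%), and a fit of the compared groups alone gave 9 (27.7%). The knockdown libraries as 1 group gave 10 in the mean (38.3%). For hairpin 3 over hairpin 1 the count was 1 with no expression filter (5.53%), 8 with the offsets (23.5%), 5 with DESeq2 (15.7%) and 0 with only the compared groups (2.68%). It was 24 without the first control and hairpin 3 libraries (57.1%), an alternative chosen after seeing the data. Leaving out 1 library gave 0 to 16 for that pair (1.84% to 40.5%). Over control it gave 21 to 27 for hairpin 1 (51.9% to 68.6%), 29 to 34 for hairpin 2 (68.5% to 77.2%), 14 to 22 for hairpin 3 (35.8% to 57.0%) and 18 to 26 in the mean (57.8% to 72.5%). It gave 35 to 36 for hairpin 2 over hairpin 1 (50.6% to 63.4%) and 31 to 34 for hairpin 3 over hairpin 2 (57.4% to 69.9%). The replicate block over 12 libraries gave 25, 33, 20, 24, 36, 2 and 34 in the order hairpins 1, 2 and 3 over control, their mean, hairpin 2 over 1, hairpin 3 over 1 and hairpin 3 over 2. In that order the shares of all genes were 63.8%, 74.9%, 49.0%, 69.9%, 58.9%, 10.5% and 66.3%. For hairpin 3 and control alone, a block added after seeing the data gave 28 (71.4%). Among the 25 member results given full statistics, those that changed sign were ATG7 in the mean, at 0.13 on TPM, MAP1LC3B for hairpin 3 over hairpin 1, at -0.04 on TPM, and ATG101 for hairpin 3 over hairpin 2, at -0.11 with the covariate and -0.011 with the offsets. Of 525 alternative values of these 25, 469 kept direction and call, 52 lost the call and 4 changed sign; other members outside these 25 changed sign as well, such as GABARAP and CTSD with hairpin 1. The cause of these changes was not tested. TFEB, MITF and ATG10 had the fewest counts, which limits their precision.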

Other observations

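AGA, an enzyme of glycoprotein breakdown in the lysosome, averaged 8.11 ± 0.623, 5.22 ± 0.278 and 9.43 ± 0.237 CPM with hairpins 1, 2 and 3, against 14.7 ± 0.59 CPM in the control (SD, n = 3 each, here and for the genes that follow). The level of CTSZ, cathepsin Z, was 45.1 ± 1.42, 38.3 ± 1.40 and 48.0 ± 4.55 CPM with hairpins 1, 2 and 3, against 80.3 ± 10.3 CPM in the control. Both means were lowest with hairpin 2. MLST8, a subunit of the mTOR complexes, stood at 34.6 ± 1.76, 27.4 ± 1.38 and 40.0 ± 8.34 CPM with hairpins 1, 2 and 3, against 60.1 ± 9.57 CPM in the control. For TSC1, a brake on mTORC1, the means were 87.8 ± 2.21, 131 ± 2.82 and 83.1 ± 8.64 CPM with hairpins 1, 2 and 3, against 57.8 ± 11 CPM in the control. RRAGB, a GTPase that brings mTORC1 to the lysosome, had 15.5 ± 0.872, 27.5 ± 0.169 and 15.4 ± 0.742 CPM with hairpins 1, 2 and 3, against 11.8 ± 1.10 CPM in the control. These 5 genes were called against the control with each hairpin in edgeR, AGA, CTSZ and MLST8 lower and TSC1 and RRAGB higher. They were picked for a small adjusted p in the mean of the hairpins over control. Their calls partly follow from that pick.

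ULK3, a relative of ULK1, averaged 48.6 ± 1.84, 41.1 ± 0.851 and 54.2 ± 7.51 CPM with hairpins 1, 2 and 3, against 75.0 ± 7.90 CPM in the control. PHB2, a mitochondrial receptor for autophagy, averaged 246 ± 0.857, 162 ± 6.20 and 292 ± 42.8 CPM with hairpins 1, 2 and 3, against 392 ± 71.6 CPM in the control. YKT6, a SNARE of autophagosome fusion, had 136 ± 3.37, 136 ± 2.54 and 152 ± 10 CPM with hairpins 1, 2 and 3, against 199 ± 18.5 CPM in the control. VPS33A, of the HOPS tethering complex, had 68.4 ± 0.594, 76.0 ± 1.26 and 74.8 ± 3.94 CPM with hairpins 1, 2 and 3, against 53.4 ± 3.57 CPM in the control. Among V-ATPase subunits, ATP6V1B2 stood at 143 ± 4.83, 239.5 ± 3.29 and 158 ± 1.70 CPM with hairpins 1, 2 and 3, against 118 ± 4.26 CPM in the control, and ATP6V1G1 at 83.0 ± 4.95, 74.0 ± 1.78 and 98.7 ± 1.97 CPM with hairpins 1, 2 and 3, against 60.1 ± 1.93 CPM in the control. ATP13A2, a lysosomal polyamine exporter, stood at 69.1 ± 1.47, 57.0 ± 1.01 and 63.6 ± 2.91 CPM with hairpins 1, 2 and 3, against 101 ± 9.60 CPM in the control. All 7 were called with each hairpin, ULK3, PHB2, YKT6 and ATP13A2 lower and the others higher. The same pick chose these genes, so such calls partly follow from it and are no separate support. Calls of the genes picked from the lists were not followed through the alternative fits. EI24, a membrane protein of the endoplasmic reticulum, had 155 ± 2.44, 210.4 ± 5.86 and 133 ± 6.96 CPM with hairpins 1, 2 and 3, against 229 ± 11.1 CPM in the control; it was lower with hairpins 1 and 3 and not called with hairpin 2 (edgeR adjusted p = 0.0824).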
